A study of Mus musculus and Homo sapiens with 11 samples.

Results

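The 9 genes described here encode the transcription factors Foxa1, Gata3, Esr1, Pgr, Elf3, Elf5, Ehf, Spdef and Tfap2c, which are known for their part in the luminal epithelium of the mammary gland. They were chosen by symbol from a table of 24062 genes, and all 9 were listed in it. RNA-seq was carried out on polyadenylated RNA of a mouse mammary tumour cell line, MMTV-ErbB2. The table held 3 libraries of the parental line and 3 of BrM2a, its brain metastatic derivative. In MMTV-ErbB2 tumours the promoter of the mouse mammary tumour virus, which is active in mammary epithelium, drives the receptor tyrosine kinase ErbB2, so both groups share that transgene. Both groups were read as cultured cells at 80% confluence, with no treatment named, although the design field of the series speaks only of human lines injected into mice. BrM2a is 1 derivative, the age of the animals and the cloning of either line are not given in the sources used here, and 5 libraries of a human line in the same series were not analysed here.

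The mammary gland has an inner luminal layer, which holds hormone-sensing and milk-forming cells, and an outer basal layer. The oestrogen receptor (Esr1), the progesterone receptor (Pgr), the pioneer factor Foxa1, which opens chromatin for other factors, and Gata3 are the core regulators of the hormone-sensing luminal cells. Elf5 directs the milk-forming alveolar lineage. Elf3, Elf5, Ehf and Spdef belong to an epithelium-restricted branch of the ETS family, and Tfap2c is an AP-2 factor of luminal cells that can act with Foxa1 and Esr1.

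The libraries held 39304974 to 46683735 assigned reads in the parental group and 29877087 to 39106969 in BrM2a. Levels below are the deposited normalised read counts, given for replicates 1, 2 and 3 in that order and then as mean ± SD over n = 3 libraries. The numbers 1 and 2 stand in the sample titles, and 3 is the remaining column of each group. No source says that separate cultures gave the replicates. The p-values therefore reflect only how far these 6 libraries scatter, and that scatter may be technical. BrM2a replicate 1 stood apart within its group: 3614 and 3654 genes were at least 2-fold apart between it and BrM2a replicates 2 and 3, against 220 between replicates 2 and 3 and 976 to 1683 between parental libraries. Results are therefore also given without it where they moved. Which of the named library kits and media each library had is not given, so kit, medium and group cannot be told apart.

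The luminal label was checked against luminal identity genes. Keratins 8 and 18 and the adhesion molecule Epcam were abundant in every library, Epcam with a mean of 20991 ± 1079.7 in the parental line and 18478 ± 3467 in BrM2a. In BrM2a, Krt8 was 2.52-fold higher (69809 ± 6322 against 28249.6 ± 7300.4) and Krt18 2.27-fold higher (43588 ± 4629.9 against 19135 ± 993), while Epcam was not called. Krt7 was at 0 in the parental libraries and at most 4.88 in BrM2a, and Agr2 was at 0 in all 6. Of 22 tested luminal identity genes, 11 were called higher in BrM2a and 5 lower, against 12.2% and 15.8% of all tested genes. The 5 lower ones were Krt19, Cdh1, Prom1 (171-fold), Prlr (18-fold) and Ceacam1 (17.7-fold). Ceacam1 lost its call without any 1 parental library or BrM2a replicate 3. The luminal keratin Krt19 was at 2424, 3439 and 529.7 in the parental libraries and 29.3, 3.83 and 11.2 in BrM2a, a 135-fold fall (85.5-fold to 238-fold as single libraries were left out). Cdh1, or E-cadherin, was 1.55-fold lower (15921 ± 666 against 24720 ± 1826), a call lost without parental replicate 2 or BrM2a replicate 2 or 3. The parental line also held some basal markers, such as Vim (37484 ± 12566) and Krt14 (9206 ± 1777), while Krt5 was at 3.73 ± 1.7. As bulk RNA was measured, fewer cells of a type and less RNA per cell cannot be told apart in any result below.

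The regions just upstream of the RefSeq starts of Foxa1 and Elf3 are shown because these factors had the largest rises among the 9. Both are from RefSeq's GRCm38.p6, on the minus strand, and are read 5′ to 3′ from 250 bases before that start up to the first annotated exon. The Foxa1 stretch lies inside the longer gene span that GENCODE gives, between its exons, and not upstream of the GENCODE start. The capitals in the Foxa1 sequence mark its only match to the 4 motifs searched, GTAAACA, the reverse complement of the forkhead motif TGTTTAC.
Foxa1, chr12:57546122-57546361: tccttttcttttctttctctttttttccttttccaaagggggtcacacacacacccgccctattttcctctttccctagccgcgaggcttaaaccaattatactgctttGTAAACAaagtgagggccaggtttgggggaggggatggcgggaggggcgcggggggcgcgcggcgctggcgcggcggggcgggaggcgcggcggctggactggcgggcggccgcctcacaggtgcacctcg
Elf3, chr1:135258569-135258722: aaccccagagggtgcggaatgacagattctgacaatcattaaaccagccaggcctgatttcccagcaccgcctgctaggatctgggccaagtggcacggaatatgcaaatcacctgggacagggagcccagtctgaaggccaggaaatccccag
The Foxa1 match begins 141 bases before the RefSeq start. Of 32851 RefSeq windows of 250 bases upstream, 3.2% hold the forkhead motif on either strand. The GATA motif AGATAA is in 10.0% of them, the ETS motif GGAAGT in 19.7% and the AP-2 motif GCCNNNGGC, which reads alike on both strands, in 13.7%. None of the 4 motifs contains another, and no matches overlapped in the windows described here. The 9 windows found for 7 of the 9 factors held no GATA and no ETS match. Gata3 had 3 AP-2 matches, GCCCGCGGC at 246, GCCCTAGGC at 231 and GCCCTTGGC at 221 bases before the start used by RefSeq, a stretch that GENCODE annotates as exon. One of the Esr1 windows had 1 AP-2 match, 170 bases before its start and also in a GENCODE exon. A match describes the letters only, and binding was not measured.

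Across the 9 factors, Foxa1, Elf3 and Tfap2c rose in BrM2a, Ehf and Gata3 fell, Esr1 and Elf5 did not pass the test, and Pgr and Spdef were too low to be tested. So of 7 tested 3 were higher and 2 lower, with a median log2 fold change of 0.83. Foxa1, with a parental mean of 8.26, reached the mean of 10 required for a test only through BrM2a. Over all 13821 genes tested by limma with a Benjamini-Hochberg adjusted p under 0.05, 28.1% were called, 12.2% as higher and 15.8% as lower, and the median log2 fold change was -0.05. The groups did not overlap for 6 of the 7, where 48.0% of all tested genes were like that. The same 5 factors were called without BrM2a replicate 1, along with Esr1 as higher and Elf5 as lower, and the share of all genes called was then 47.3%, with 20.9% higher and 26.4% lower. The plot of values by library shows all 9.

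**Figure D1:**
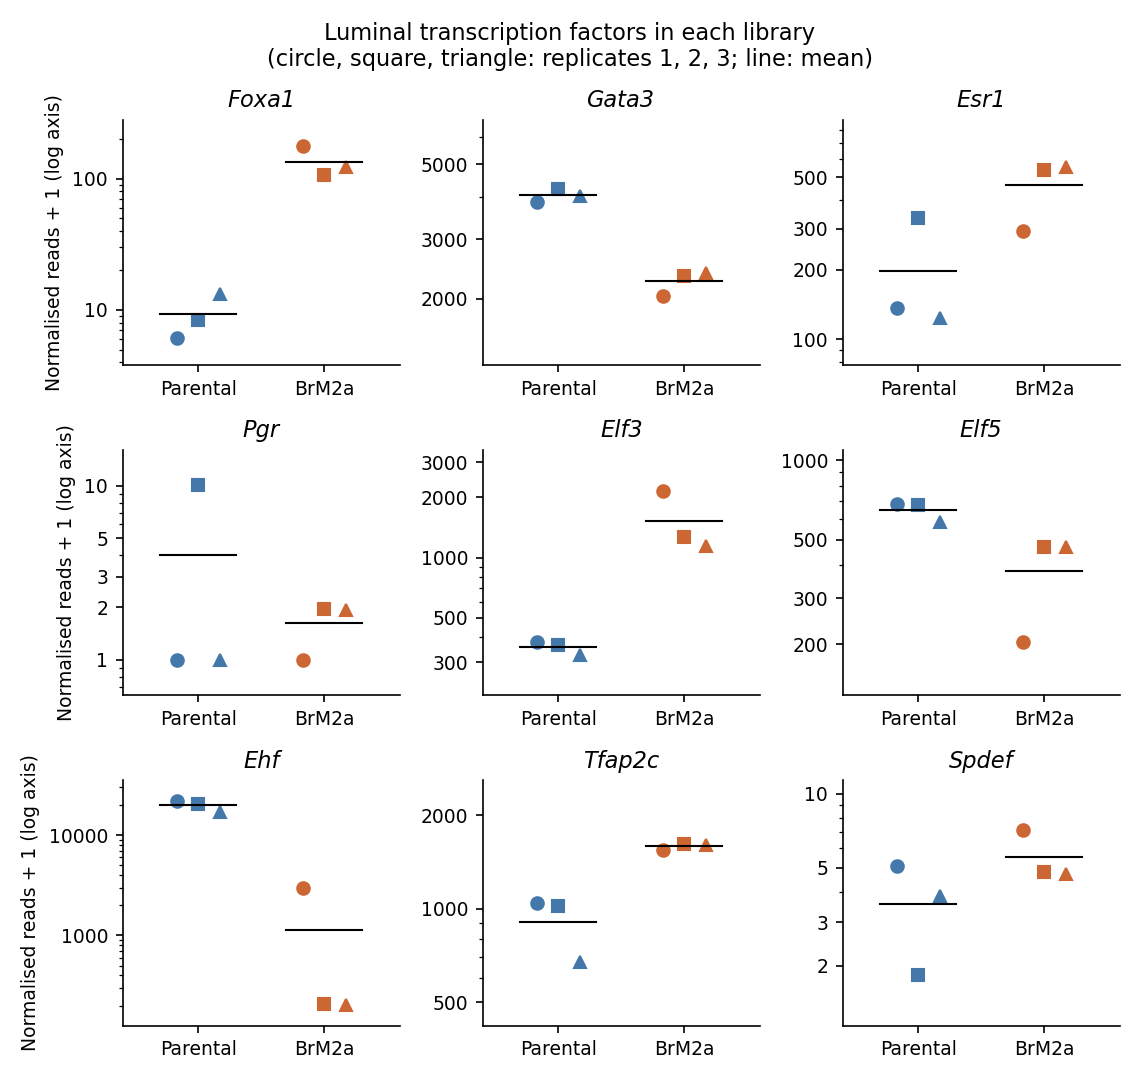
Normalised read counts plus 1 (log axis, a range of its own in each panel) of the 9 factors in the 3 parental (blue) and 3 BrM2a (orange) libraries, with the group mean as a line. Foxa1 lies at 5.09 to 12.3 in the parental line and 106 to 175 in BrM2a, and Ehf at 16943 to 22017 in the parental line and 201 to 2965 in BrM2a.

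Of the hormone-sensing factors, Foxa1 had the largest rise. It lies on chromosome 12 (GRCm38, 57540628 to 57546916, minus strand). Its levels were 5.09, 7.41 and 12.3 in the parental libraries, from 5, 9 and 13 reads, and 175, 106 and 121 in BrM2a, from 143, 111 and 130 reads. Every BrM2a library was far above every parental library, and the parental level rested on few reads. The means were 134 ± 36 in BrM2a and 8.26 ± 3.67 in the parental line, a 15-fold rise (log2 fold change 3.91, SE 0.42, limma adjusted p = 0.00136). Without BrM2a replicate 1 the rise was 13-fold. The median log2 fold change of the 475 tested genes of chromosome 12 was 0.99, and 58.5% of them were called higher and 4.4% lower. With each chromosome centred on its own median, Foxa1 was 7.57-fold higher (adjusted p = 0.00516).

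Gata3, a zinc finger factor needed to keep cells luminal, fell by less and with little spread. The gene is on chromosome 2 (9857078 to 9890034, minus strand). Its levels were 3863, 4233 and 4032 in the parental libraries and 2035, 2327 and 2385 in BrM2a, with no overlap. The means were 2249 ± 188 in BrM2a and 4043 ± 185 in the parental line, a 1.8-fold fall (log2 fold change -0.85, SE 0.12, adjusted p = 0.00387 by limma). It was among the more abundant of the 9 in both groups. Gata3 overlaps 4930412O13Rik on the other strand (mean 598 in the parental line and 248 in BrM2a) and 9230102O04Rik on its own strand (69.9 and 33.1), and whether counting used the strand is not given in the sources used here, so reads of these genes may not be fully separated. The median log2 fold change of chromosome 2 was -0.41, and with chromosomes centred Gata3 was 1.35-fold lower (adjusted p = 0.0449).

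Esr1, the oestrogen receptor alpha, was higher on average in BrM2a but did not pass. Its position is on chromosome 10 (4611593 to 5005614, plus strand). Its levels were 135, 332 and 123 in the parental libraries and 292, 535 and 553 in BrM2a. Parental replicate 2 was above BrM2a replicate 1, so the groups overlapped. The BrM2a mean was 460 ± 146 and the parental mean 197 ± 117 (log2 fold change 1.32, SE 0.46, limma adjusted p = 0.078). Esr1 passed as higher without parental replicate 2 (3.41-fold, adjusted p = 0.0335), without BrM2a replicate 1 (3.06-fold, adjusted p = 0.0265) and with DESeq2 on the recovered reads (adjusted p = 0.0372).

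Pgr, the progesterone receptor and a classical oestrogen-induced gene, was almost absent. The gene is on chromosome 9 (8899833 to 8968611, plus strand). Its levels were 0, 9.06 and 0 in the parental libraries and 0, 0.956 and 0.931 in BrM2a. The 9.06 of parental replicate 2 came from 11 reads, and the other 5 libraries held 2 reads in all. That library also held the highest parental Esr1. A count of 0 allows up to 3 reads, which is 2.83 to 3.66 normalised reads in the 3 libraries at 0. The level was below the mean of 10 required for a test, so no fold is given.

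Among the epithelial ETS factors, Elf3 rose. Elf3, expressed in epithelia and induced by inflammatory signals, lies on chromosome 1 (135253575 to 135258568, minus strand). Its levels were 377, 362 and 326 in the parental libraries and 2158, 1270.2 and 1147 in BrM2a. The parental libraries were close together and all BrM2a libraries were above them, replicate 1 the most. The means were 1525 ± 552 in BrM2a and 355 ± 26.2 in the parental line, a 4.13-fold rise (log2 fold change 2.05, SE 0.27, adjusted p = 0.00268 by limma). Without BrM2a replicate 1 it was 3.4-fold. The annotated antisense gene Gm26642 overlaps Elf3 and is not listed in the table.

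Ehf, an ETS factor of differentiated epithelia, had the largest change of the 9. It lies on chromosome 2 (103263433 to 103303278, minus strand). Its levels were 22017, 20320.1 and 16943 in the parental libraries and 2965, 206 and 201 in BrM2a. All BrM2a libraries were below all parental ones, but BrM2a replicate 1 stayed well above replicates 2 and 3. The means were 1124 ± 1594 in BrM2a and 19760 ± 2583 in the parental line, and the fall was 39.4-fold on the log2 scale (log2 fold change -5.30, SE 1.02, limma adjusted p = 0.0111). The size depends on which BrM2a libraries enter. It was 96.1-fold without BrM2a replicate 1 (adjusted p = 2.51e-05), 25.4-fold without replicate 2, 25.1-fold without replicate 3 and 17.7-fold with edgeR, which compares means of reads (adjusted p = 0.0415).

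Elf5, the alveolar regulator, lies on the same chromosome (103411688 to 103450989, plus strand), and its start is 108.4 kb from that of Ehf. Its levels were 684, 676 and 585 in the parental libraries and 204, 469.6 and 468 in BrM2a. All BrM2a libraries were below all parental libraries, yet the difference did not pass, with means of 649 ± 54.8 in the parental line and 381 ± 153 in BrM2a (log2 fold change -0.86, SE 0.35, limma adjusted p = 0.118). The spread came from BrM2a replicate 1, without which Elf5 passed at 1.38-fold lower (adjusted p = 0.0387). Ehf and Elf5, though neighbours, placed the BrM2a libraries in opposite order. Relative to the parental mean on the log2 scale, Ehf was at -2.73 in BrM2a replicate 1 and at -6.57 and -6.60 in replicates 2 and 3, while Elf5 was at -1.66 in replicate 1 and at -0.46 in both others.

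Spdef, an ETS factor of secretory cells, was barely detected. Its position is on chromosome 17 (27714352 to 27728955, minus strand). Its levels were 4.07, 0.824 and 2.83 in the parental libraries and 6.1, 3.83 and 3.73 in BrM2a, from 1 to 5 reads each. The groups overlapped, and no test was made below a mean of 10.

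Tfap2c, the AP-2 factor of the set, rose modestly. It lies on chromosome 2 (172549593 to 172558622, plus strand). Its levels were 1039, 1016 and 671 in the parental libraries and 1548, 1621 and 1598 in BrM2a. The 3 BrM2a libraries were nearly alike and all above the parental ones, of which replicate 3 was the lowest. The means were 1589 ± 37.5 in BrM2a and 909 ± 206 in the parental line, a 1.78-fold rise (log2 fold change 0.83, SE 0.20, limma adjusted p = 0.0248). The call was lost without parental replicate 2 (adjusted p = 0.0544), BrM2a replicate 2 (0.0874) or BrM2a replicate 3 (0.0831). It rose while the median of its chromosome was below 0, and with chromosomes centred it was 2.37-fold higher (adjusted p = 0.00692).

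**Figure D2:**
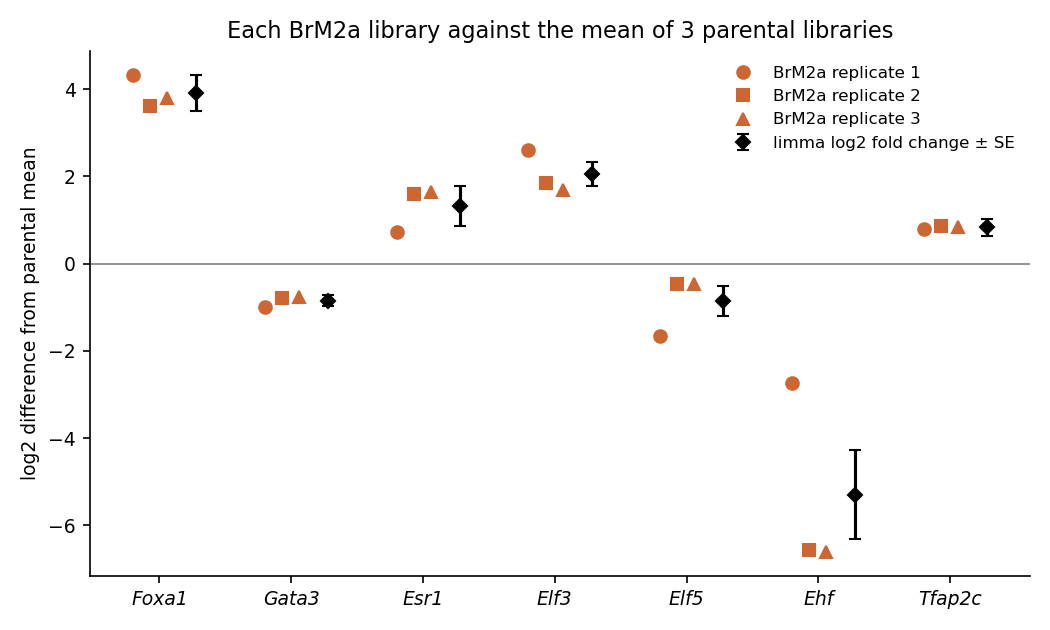
Difference of each BrM2a library from the mean of the 3 parental libraries, on log2 of the normalised value plus 1, for the 7 tested factors, with limma's log2 fold change and its standard error as black diamonds and bars. BrM2a replicate 1 (circles) lies apart from replicates 2 and 3 for Ehf (-2.73 against -6.57 and -6.60) and for Elf5 (-1.66 against -0.46), and beside them for Tfap2c.

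Levels can be set against each other between genes only per length, here as normalised reads per kb of merged annotated exons. In the parental line Ehf was the most abundant of the 9, at 3544 ± 463 per kb, above 97.5% of the 18920 genes with a read and a length. Gata3 followed at 1016 ± 46.5, Tfap2c at 247 ± 56, Elf3 at 160.1 ± 11.8, Elf5 at 110.3 ± 9.32, Esr1 at 14.4 ± 8.59, Foxa1 at 2.48 ± 1.1 and Spdef at 1.12 ± 0.711. The ranges of all neighbours in this order lay apart, except those of Foxa1 with Spdef and of Spdef with Pgr. In BrM2a the order began with Elf3 at 688 ± 249 per kb, Gata3 at 565 ± 47.2 and Tfap2c at 432 ± 10.2. The ranges of Elf3 and Gata3 overlapped there, so which of them led is not resolved. Ehf, at 202 ± 286, ran from 36.1 to 532 over the BrM2a libraries and overlapped the ranges of Elf3, Gata3, Tfap2c, Elf5, Foxa1 and Esr1, so its place in the BrM2a order is not resolved. Foxa1, at 40.3 ± 10.8 per kb, had come level with Esr1, at 33.7 ± 10.7, where in the parental line every Esr1 value was above every Foxa1 value.

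**Figure D3:**
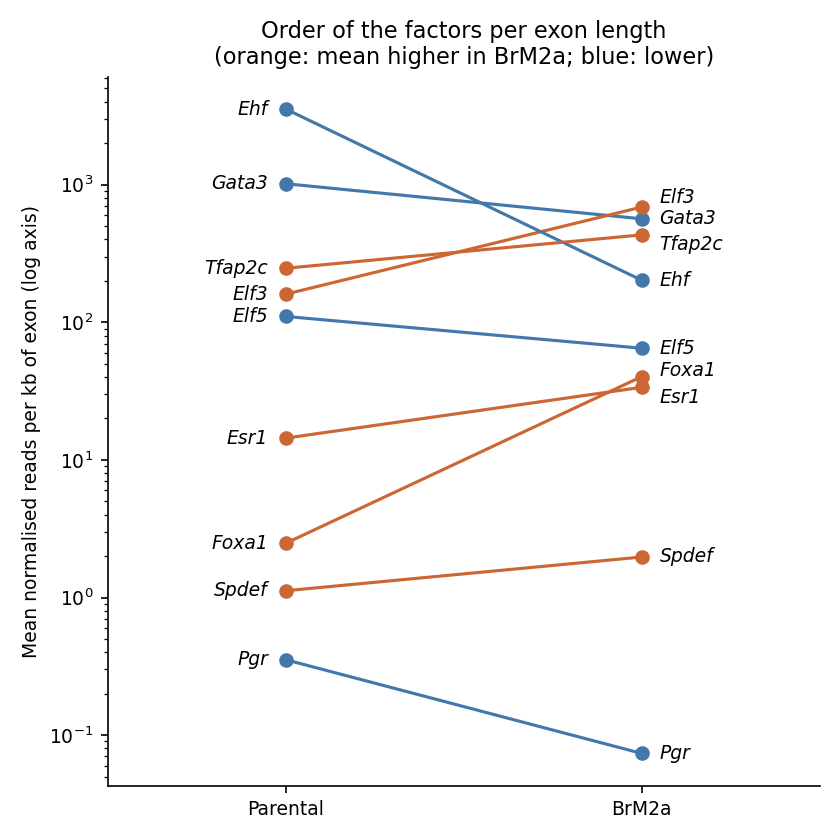
Mean normalised reads per kb of merged exons (log axis) of the 9 factors in the parental line and in BrM2a, over 3 libraries each, with lines joining the 2 means of a gene. Ehf goes from a mean of 3544 to 202, and Elf3 from 160.1 to 688.

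Relatives of the factors from the same families were also examined. Of 3 tested GATA factors other than Gata3, all 3 rose, while 12.2% of all tested genes did. Gata4, known from endoderm and heart, was at 7.12, 6.59 and 5.67 in the parental libraries and 1109.6, 578 and 585 in BrM2a, a 97.1-fold rise (limma adjusted p = 0.000135). Gata6, a partner of Gata4 in those tissues, was at 2.04, 1.65 and 0 in the parental libraries and 496, 126 and 98.7 in BrM2a, 92.2-fold higher (adjusted p = 0.00181 by limma) and 56.2-fold without BrM2a replicate 1. Gata2 rose 2.98-fold from a low level, a call lost without parental replicate 1 or 2 or BrM2a replicate 2 or 3 (adjusted p 0.0709 to 0.0979). Per kb, Gata3 remained above Gata4, Gata6 and Gata2 in each BrM2a library. It exceeded Gata4 532, 630.4 and 698 times in the parental libraries and 1.8, 3.95 and 4 times in BrM2a.

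The other FOXA factors went in both directions. Foxa2, known from endoderm, was at 11.2, 4.94 and 16.1 in the parental libraries and 403, 55.5 and 70.8 in BrM2a, 11-fold higher (adjusted p = 0.0242 by limma) and 5.93-fold without BrM2a replicate 1. Its call was lost without parental replicate 1 or 2 (adjusted p 0.0733 and 0.0886). Foxa3 fell 4.45-fold, from 27.7 ± 7.11 to 5.61 ± 2.47, and lost its call without parental replicate 2 or BrM2a replicate 2 (adjusted p 0.0573 and 0.0617).

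Tfap2a, the only tested relative of Tfap2c, fell 1.83-fold while Tfap2c rose. Its levels were 1936, 1991 and 2046 in the parental libraries and 906, 1217 and 1159 in BrM2a (adjusted p = 0.00866 by limma). Per kb, the ratio of Tfap2c to Tfap2a was 0.715, 0.68 and 0.437 in the parental libraries and 2.28, 1.78 and 1.84 in BrM2a, so the more abundant of the pair was Tfap2a in every parental library and Tfap2c in every BrM2a library. The ratio of Ehf to Elf3 crossed 1 in the same way, from 23.2, 22.3 and 20.7 in the parental libraries to 0.546, 0.0644 and 0.0697 in BrM2a.

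**Figure D4:**
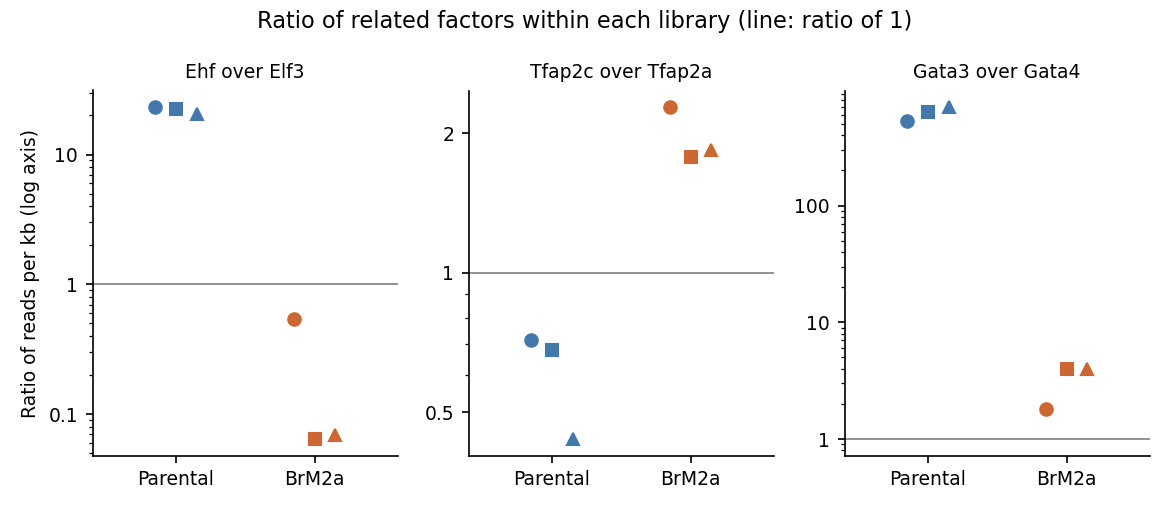
Ratio of normalised reads per kb between related factors within each library (log axes), for Ehf over Elf3, Tfap2c over Tfap2a and Gata3 over Gata4, with replicates 1, 2 and 3 as circles, squares and triangles (blue parental, orange BrM2a). The first 2 ratios lie on opposite sides of 1 in the groups, and Gata3 over Gata4 is 532 to 698 in the parental line and 1.8 to 4 in BrM2a.

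Of 5 tested steroid receptors other than Esr1 and Pgr, 1 rose and 2 fell, with 2 not passing (60.0% called, against 28.1% of all genes). Without BrM2a replicate 1, 6 were tested, of which 1 rose and 2 fell (50.0% called, near the 47.3% of all genes). Nr3c2, the mineralocorticoid receptor, fell 20.2-fold (36.4-fold without parental replicate 3), from 146 ± 97.2 to 5.05 ± 3.06. Esr2, the second oestrogen receptor, rose 3.44-fold at a low level, 60.4 ± 8.21 against 17.3 ± 5.12, and lost its call without BrM2a replicate 2 or 3 and with chromosomes centred (adjusted p 0.0548 to 0.188 over the settings that ended it). Of 15 other ETS factors tested, 2 rose and 3 fell, with 10 not passing and a median log2 fold change of -0.27. The share called, 33.3%, was near the background of 28.1%, and so was the share without BrM2a replicate 1 (50.0% against 47.3%). Etv6, a repressor, fell 3.43-fold (2719 ± 444 against 9278 ± 911), and Elf4 rose 2.08-fold (2859.6 ± 487 against 1364 ± 98.3).

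Cofactors and partner transcription factors of luminal cells were mostly lower where they passed: of 32 tested, 2 rose and 16 fell, with 14 not passing and a median log2 fold change of -0.78 against -0.05 over all genes. In all, 56.2% were called, against 28.1% of all genes. Without BrM2a replicate 1 the counts were 4 and 16 (62.5% called, against 47.3% of all genes). Tbx3, a T-box repressor of hormone-sensing cells, was at 478, 445 and 501 in the parental libraries and had no read in BrM2a. Taking a floor of 3 reads for the whole group, it was at least 464-fold lower, a bound for counting error only. Sox9, a factor of luminal progenitor and basal cells, fell 2.43-fold (3865 ± 103 against 9453 ± 1291).

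Target genes of the oestrogen and progesterone receptors went both ways: 3 of 20 tested rose and 2 fell while 15 did not pass, with a median log2 fold change of -0.44. The share called, 25.0%, was near the 28.1% of all genes, and so was the share without BrM2a replicate 1, with 5 higher and 5 lower (50.0% against 47.3%). Prlr, the prolactin receptor, fell 18-fold (223 ± 169 against 3642 ± 1736), and Id4, an inhibitor of helix-loop-helix factors, fell 4.87-fold (1219.9 ± 365 against 5863 ± 1394). Fhl1, a LIM-domain protein, rose 17.6-fold (359.9 ± 106 against 20.9 ± 10.2). Slc9a3r1, a scaffold protein, rose 1.77-fold, and its call was lost without any 1 library other than BrM2a replicate 1 (adjusted p 0.0511 to 0.0917). Greb1, an oestrogen-induced growth gene named after its values were seen, was at 155, 516 and 394 in the parental libraries and 39.1, 319 and 416 in BrM2a and did not pass (adjusted p = 0.54 by limma).

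Luminal identity genes rose more often than they fell, 11 against 5 of 22 tested with 6 not passing, a median log2 fold change of 0.51. In this list 72.7% were called, against 28.1% of all genes. Without BrM2a replicate 1, 11 rose and 8 fell (86.4% called, against 47.3% of all genes). Ap1m2, an epithelial sorting adaptor, rose 4.67-fold (3017 ± 76.4 against 649 ± 80.1). Ly6a, a surface marker, rose 12.9-fold (10985 ± 2466 against 844 ± 164). Prom1, a membrane protein of hormone-sensing luminal cells, fell 171-fold (15.3 ± 2.63 against 2993 ± 1314).

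Luminal progenitor and alveolar genes fell where they passed, with 1 exception: of 14 tested, 1 rose and 7 fell, with 6 not passing and a median log2 fold change of -2.15. Here 57.1% were called, against 28.1% of all genes. Without BrM2a replicate 1, 11 fell and 1 rose (85.7% called, against 47.3% of all genes). Kit, the stem cell factor receptor of luminal progenitors, was at 2276, 2142 and 702 in the parental libraries and 3.66, 0 and 0 in BrM2a. From 3 reads in BrM2a it was 1679-fold lower by the ratio of pooled reads (exact 95% interval 574 to 8144, counting error only). Wfdc18, a secreted protease inhibitor, fell 28.8-fold (45.3-fold without BrM2a replicate 1). Btn1a1, a protein of the milk fat globule, rose 6.02-fold (728 ± 300.2 against 119 ± 41.6). Of the milk protein genes, Csn2, Wap and Lalba were at 0 in all 6 libraries, while Csn3 was at 868, 666 and 53.8 in the parental libraries and 144, 227 and 219 in BrM2a and did not pass. Csn1s1 was at 40.7, 31.3 and 0 in the parental libraries, had no read in BrM2a and did not pass either.

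Among the lists of markers of other cells, only the basal and the fibroblast sums did not overlap between the groups. Of 13 tested basal and myoepithelial markers 2 rose and 7 fell, with summed levels of 39056 to 67103 in the parental libraries and 7409 to 8563 in BrM2a. Most of each parental sum was Vim alone, at 25962, 50883 and 35608. Trp63, the defining factor of basal epithelium, fell 224-fold, from 1573 ± 663 to 10.1 ± 13.4 (447-fold without BrM2a replicate 1, 148-fold without replicate 2). The 2 that rose were Sox10 and Krt5. Sox10 rose 15.3-fold, from 56.7 ± 37.4 to 732 ± 17.3 (9.84-fold without parental replicate 3). Krt5 rose 5.41-fold at a low level, from 3.73 ± 1.7 to 26.3 ± 15.7. Its call was lost without parental replicate 1 or 2 or BrM2a replicate 2. Of 6 tested fibroblast and pericyte markers 0 rose and 4 fell, and their listed genes summed to 4650 to 16114 in the parental libraries and 226 to 1133 in BrM2a, with Lum at 0 in all 6. Postn alone, at 11713, 8518 and 3079, was most of each parental sum. Of 3 tested leukocyte markers 1 rose, the receptor Csf1r (7.52 ± 9.84 against 268 ± 45.7 in BrM2a; 49.1-fold, and 93.9-fold without parental replicate 3), while Ptprc, which marks all leukocytes, was at most 4.88, and the list summed to 226 to 952 in the parental libraries and 449 to 3003 in BrM2a. No endothelial marker reached the level for a test, and their sums were at most 26. Of 5 tested brain cell markers 3 rose and 1 fell, with sums of 2279 to 2980 in the parental libraries and 2245 to 2700 in BrM2a. P2ry12 rose 14.1-fold (97 ± 71.6 against 5.18 ± 2.26), Gfap 4.31-fold (106 ± 29.9 against 23.4 ± 5.08) and Mbp 1.82-fold. Slc1a2 fell 33.9-fold, and Tmem119 did not pass. Aqp4, Snap25, Rbfox3, Mog and Olig2 were too low to be tested. Called were 69.2% of tested basal, 66.7% of fibroblast, 33.3% of leukocyte and 80.0% of brain cell markers, against 28.1% of all tested genes. Without BrM2a replicate 1 these shares were 66.7%, 66.7%, 33.3% and 100.0%, against 47.3% of all tested genes. Krt5, Csf1r and P2ry12 reached the level for a test only through BrM2a. For the changes of Foxa1, Elf3, Tfap2c, Ehf and Gata3, the part of these markers' cells was not tested.

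Positions were compared next, since 4 of the 9 factors lie on chromosome 2. Of 1085 tested genes of that chromosome 6.4% were called higher and 27.8% lower. The factors on it did not move alike: Ehf and Gata3 fell, Tfap2c rose and Elf5 did not pass. Chromosome 12, which carries Foxa1, had the highest median, 0.99, and the medians of the other chromosomes lay between -0.41 and 0.24. Foxa1, Elf3, Tfap2c, Ehf and Gata3 each kept the direction and the call when chromosomes were centred.

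**Figure D5:**
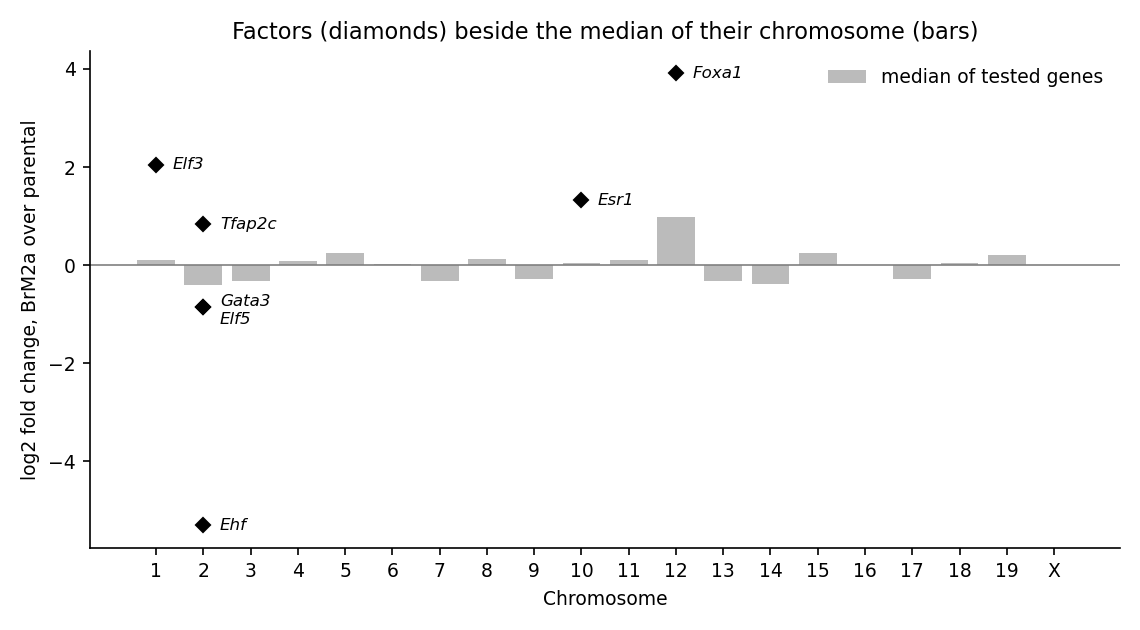
Log2 fold change of the 7 tested factors (diamonds) beside the median log2 fold change of all tested genes of each chromosome (bars). Foxa1 lies at 3.91 over a chromosome 12 median of 0.99, and the chromosome 2 factors run from -5.30 for Ehf to 0.83 for Tfap2c around a median of -0.41.

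Tested genes that start within 1 Mb of a factor were compared with it. Over all tested genes 28.1% were called, and for 48.0% the groups did not overlap. On chromosome 2, 6.4% were called higher and 27.8% lower. Whether the counts near a factor differ from these shares was not tested. Near Foxa1, 3 genes were tested, with a median log2 fold change of 0.99. Pax9, a paired box factor, fell 89.8-fold (182-fold without BrM2a replicate 1) with levels of 282, 234 and 89.7 in the parental libraries and 7.32, 0 and 0 in BrM2a. Prps1l3 rose 2.39-fold, a call lost with chromosomes centred and without any 1 library other than BrM2a replicate 1 (adjusted p 0.0629 to 0.584). Mipol1, which has the same start, did not pass. Near Ehf, 1 of 14 rose, 4 fell and 9 did not pass, with a median of -0.51 against -5.30 for Ehf itself and with 8 of the 14 below the parental range in every BrM2a library. Among those that fell was Slc1a2, a glutamate transporter, 33.9-fold lower (53.6-fold without BrM2a replicate 1). Several of the calls near Ehf were not stable over 21 alternative analyses. Apip, which fell, lost its call in 15 of them, Cat, which fell, in 7, and Abtb2, which rose, in 10. Near Gata3, 7 of 8 were below the parental range in every BrM2a library. Only 3 of these passed as lower, and the other 4, 9230102O04Rik, Taf3, Atp5c1 and Kin, were at log2 fold changes of -1.05, -0.57, -0.41 and -0.44 and did not pass. Of the 3, 4930412O13Rik lost its call in 6 of 21 alternatives and Itih5 in 2 of 19. The median of the 8, -0.81, was close to the -0.85 of Gata3. However, 9230102O04Rik and 4930412O13Rik, which are among the 8, overlap Gata3. Their reads may not be fully separated from its own, so this median is not independent of Gata3. Itih2, a hyaluronan-binding protein, fell 712-fold (356-fold to 1300-fold as single libraries were left out), and Sfmbt2, a Polycomb group gene, rose 6.85-fold (4.55-fold without parental replicate 3). Near Tfap2c, 2 of 11 rose, 2 fell and 7 did not pass, with a median of -0.46 where Tfap2c was at 0.83, and with Bmp7, a secreted growth factor, 40.3-fold higher. The 2 that fell, Fam210b and Rbm38, lost their calls in 9 and 8 of 21 alternatives. Near Elf3, 6 of 29 rose, 1 fell and 22 did not pass, with a median of 0.3.

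The genes whose levels over the 6 libraries were most like those of a factor were found by the root mean square distance of centred log2 profiles, among 10842 tested genes with a mean of at least 100. With only 6 libraries in 2 groups, many genes share such a profile, and this is a description. Hpcal1, a calcium sensor, was closest to Elf3 (distance 0.052), with 1107, 1170.4 and 1050 in the parental libraries and 6505, 3835 and 3640.5 in BrM2a. Mtmr6, a lipid phosphatase, was closest to Gata3 (0.031) and Cbx6, a Polycomb protein, to Tfap2c (0.056). For Foxa1 the closest were Sgpp2, a sphingosine phosphatase (0.196), and Ly6a (0.215). Ehf had more distant nearest genes, Nebl, an actin-binding protein also on chromosome 2 (0.28), and Icam1, an adhesion molecule (0.313). Both repeated its order in BrM2a: Nebl was at 219, 20.1 and 18.6 and Icam1 at 442, 43 and 37.3 in replicates 1, 2 and 3. Tatdn2, a nuclease gene, was closest to Elf5 (0.085), and its BrM2a values of 1249, 2922 and 2919.7 were again lowest in replicate 1. Itgb3bp, a centromere protein, was closest to Esr1 (0.193) and, like Esr1, highest in parental replicate 2 among the parental libraries.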

How the data were processed

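The authors deposited a signal per gene and library, reads scaled between libraries. The submitters' processing notes list GRCm38, GRCh38, HTSeq and STAR; versions and the scaling tool are not given in the sources used here. Per the labels, sequencing was on a HiSeq. Dividing each library by its smallest value above 0 gave whole reads for 100% of the values (tolerance 0.01 read).

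A gene was tested if its values averaged 10 or more across all 6 libraries, which 13821 of 24062 did. The test was limma 3.58.1 (R 4.3.3), applied to log2(value + 1), with an intensity trend, group alone in the model, two-sided, Benjamini-Hochberg adjustment over all tested genes and a threshold of 0.05. Folds come from the same log2 scale. edgeR 4.0.16 and DESeq2 1.42.0 on recovered reads, other pseudocounts, filters and scalings, centred chromosomes, a replicate block and leaving out each library were alternatives. Averaging BrM2a replicates 2 and 3, and list counts without BrM2a replicate 1, were chosen after seeing the data. Scripts were tested on simulated data.

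Positions, exons and neighbours came from GENCODE M21 (GRCm38), which matched 98.3% of symbols, 915 through synonyms. Upstream sequences came from RefSeq (GRCm38.p6), which matched 7 of the 9 factors. The factors and gene lists were chosen with earlier results of these data known. Named were all 9 factors, up to 4 called genes a list with the smallest p-values, the 2 most similar profiles a factor and called neighbours within 1 Mb; a smaller number is printed, and results that need items withheld for evaluation are not reported here. Other genes are levels of list members or markers, named after their values were seen. Figures used matplotlib 3.10.9.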

Additional observations from a re-analysis of the deposited data

How the results depend on the processing

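Over 21 alternatives, Foxa1, Elf3, Ehf and Gata3 kept their direction and their call in all 21, and Tfap2c in 17. Tfap2c lost it without parental replicate 2, BrM2a replicate 2 or BrM2a replicate 3, and with BrM2a replicates 2 and 3 averaged (limma adjusted p = 0.0848). Esr1 passed in 4 and Elf5 in 1. The count of genes called, 3881, was 2279 with BrM2a replicates 2 and 3 averaged, and it ranged from 2190 (without BrM2a replicate 2) to 6465 (without BrM2a replicate 1) as single libraries were left out. Leaving out parental replicate 2 gave 2212, and leaving out parental replicate 1 or BrM2a replicate 3 gave 2488 or 2313. edgeR called 3753 genes and DESeq2 5075. With a replicate block limma called 4040 genes and Esr1 passed (adjusted p = 0.0469). Deviations of libraries with the same number correlated at 0.30, -0.09 and 0.33. Deviations from a mean of only 3 libraries depend on each other, so these values cannot decide whether the numbers pair the libraries. Pgr, at 11 reads in 1 library and 2 in all others together, and Spdef, at 1 to 5 reads, had too few reads for the main test.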
